A study of Mus musculus with 10 samples.

Results

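The RNA exosome is a complex of proteins that trims and degrades RNA from its 3′ end in the nucleus and in the cytoplasm. Its core subunits are encoded by Exosc1 to Exosc10, and these 10 genes of the 53379 in the count tables, taken by symbol, are described here. Exosc9 was chosen by its measured level in the aversive libraries of this series against the other groups, and the family was selected on that account, so the values of Exosc9 are given as a description without a test, and the question was whether the other 9 genes followed it library by library. The mice were 5-week-old males, and by the labels 8 were pooled for each condition, while the study's methods give a smaller number for mock. In the tagged groups, cells active during the experience were labeled with EYFP by injection of AAV9-c-Fos-tTA together with the reporter AAV9-TRE-ChR2-EYFP. The transactivator is made from the c-Fos promoter and is blocked by doxycycline in the diet. Labeled cells of the hippocampal region were then isolated by FACS, and the study's results speak of nuclei in this place. The aversive group (2 libraries, replicates 1 and 3) received 4 foot shocks of 1.5 mA for 2 s each. The appetitive group (2 libraries) was exposed to a female, which the labels put at 1 h and the study's methods at a longer time. The neutral group (3 libraries) explored the conditioning cage without a stimulus, and the mock group (3 libraries) consisted of home cage males, which the study's methods call an untagged control. A tag driven by c-Fos is not restricted to neurons by these viruses alone.

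The subunits have distinct places in the complex. Exosc1, Exosc2 and Exosc3 form a cap that binds RNA. Exosc4 to Exosc9 form a ring through which RNA is threaded, in the pairs Exosc4 with Exosc9, Exosc6 with Exosc7 and Exosc5 with Exosc8. Cap and ring have no RNA-cutting activity of their own in mammals. That activity lies in Exosc10, a 3′ exonuclease that is mostly nuclear, and in Dis3 and Dis3l, which bind the opposite end of the ring. In neurons and glia, as in other cells, the complex matures ribosomal RNA and removes short-lived nuclear transcripts, and inherited variants of several subunits are known to cause disorders of the brain stem and cerebellum.

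The 3 cap genes differed among themselves. Exosc2 and Exosc3 were far below mock in both aversive libraries and in 1 appetitive library, in which Exosc1 was above mock. Their promoters are therefore shown. Each sequence is the 150 bases before the RefSeq start site on GRCm38.p6, read in the direction of the gene, and capitals mark CCAAT boxes (CCAAT or its reverse complement) and the core of the ETS motif, CGGAAG, on either strand. The genes of Exosc1 and Exosc3 begin further upstream in the GENCODE M21 annotation, so that part of the Exosc1 window and the whole Exosc3 window lie inside the annotated gene.
Exosc1, chr19:41933315-41933464, minus strand: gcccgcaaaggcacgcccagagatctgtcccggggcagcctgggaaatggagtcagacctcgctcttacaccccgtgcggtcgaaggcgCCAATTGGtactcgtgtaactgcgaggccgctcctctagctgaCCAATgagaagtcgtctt
Exosc2, chr2:31670565-31670714, plus strand: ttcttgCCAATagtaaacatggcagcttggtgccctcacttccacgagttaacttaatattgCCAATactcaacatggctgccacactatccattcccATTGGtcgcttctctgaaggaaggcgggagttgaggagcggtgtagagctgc
Exosc3, chr4:45320617-45320766, minus strand: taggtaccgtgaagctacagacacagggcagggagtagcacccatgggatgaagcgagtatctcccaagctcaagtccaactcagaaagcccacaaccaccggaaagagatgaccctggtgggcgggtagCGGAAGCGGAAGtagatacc

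Exosc1 and Exosc2 each held 3 CCAAT matches, of which a pair overlap in Exosc1, and Exosc3 held none but had 2 adjacent CGGAAG matches. Exosc1 and Exosc2 thus share the CCAAT matches and Exosc3 does not. The relation of these letters to the levels of the genes was not tested. RefSeq promoters were matched for 8 of the 10 genes, all but Exosc4 and Exosc9. Over the 250 bases before the start site, CCAAT was found in 3 of these 8 promoters, against 34.46% of 27025 promoters of the genome. CGGAAG was found in 3 of 8 (Exosc3, Exosc6 and Exosc8), against 13.76%. CACGTG, an E-box, was found in 1 of 8 (Exosc5), against 6.046%. These matches are letters in a window and say nothing about which factors bind there.

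Libraries held 16968588 to 67650693 counts. Levels are CPM, counts scaled to a fixed library total, after TMM normalization, and 3 counts, taken as the smallest level that the depth can show, were 0.0346 to 0.235 CPM, a floor that covers counting error only. The libraries of a group are not described as separate pools, so p-values measure only the spread between these libraries. The neutral libraries were made with another kit and read at 100 bp rather than 40 bp, so the kit cannot be told apart from the neutral experience. Markers of other cells were abundant. Summed over 4 oligodendrocyte genes they reached 37830 to 275285 CPM in mock, 20328 to 337109 in aversive, 70125 to 673274 in appetitive and 5867 to 30174 in neutral libraries. The 3 choroid plexus genes summed to 21001 to 129762 CPM in neutral libraries and to at most 13460 CPM elsewhere. The 6 neuron genes summed to 146.5 to 254.2 CPM in mock, 379.2 to 561 in aversive, 155 to 685.5 in appetitive and 36.5 to 67.6 in neutral libraries. All 6 were above 3 counts in every mock and aversive library. Gad1 had 0 counts in both appetitive libraries and in neutral replicates 1 and 3. In appetitive replicate 2, Syt1 had 0 counts and Rbfox3 had 2, so only 3 of the 6 were above 3 counts there. Slc17a7 had 1 count in neutral replicates 1 and 2. The 4 astrocyte genes summed to 147.6 to 286.8 CPM and the 4 microglia genes to 10.4 to 153 CPM in neutral libraries, against at least 1956 and 461.8 CPM elsewhere. The part of these differences in the levels of the subunits was not tested, and in such bulk samples fewer cells of a type cannot be told apart from less RNA per cell.

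In the mock libraries, 9 of the 10 subunits were measured, and each varied little between the 3 libraries. The highest mock level of each gene was 1.16 to 1.77 times its lowest, with a median of 1.66, against a median of 1.85 over the 7096 genes with at least 10 CPM in each mock library. Per kilobase of exon, Exosc10 had the highest mock level at 15.19 ± 2.64 CPM (SD, n = 3), followed by the cap gene Exosc3 at 12.33 ± 3.53 and the ring gene Exosc4 at 10.3 ± 1.52. Exosc9 came next at 5.11 ± 1.39 CPM per kilobase, and no Exosc9 value reached the lowest Exosc4 value of 8.92. The ranges of all other neighbours in this order overlapped, from Exosc9 through Exosc1, Exosc2, Exosc8 and Exosc7 to Exosc5 at 2.69 ± 0.225. The exon length joined all annotated transcripts of a gene, 1324 bp for Exosc3 and 6268 bp for Exosc5, and the order depends on it. In plain CPM the mock means were 16.33 for Exosc3, 16.89 for Exosc5, 20.04 for Exosc4 and 24.05 for Exosc9. Exosc6 had 0 counts in all 10 libraries. Its single exon (chr8:111056339-111057664 of GRCm38, plus strand, 1326 bp) lies entirely within exons of Aars, which encodes alanyl-tRNA synthetase and had 35 to 8134 counts, on the same strand. The counts therefore cannot show whether this ring gene was transcribed, and it was not tested.

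Exosc9 (ENSMUSG00000027714, chr3:36552606-36565727, plus strand) was close to absent in the aversive libraries and highest in the appetitive libraries. Its counts were 2 and 4 in the aversive libraries, or 0.1001 and 0.0802 CPM. The appetitive libraries had 155.7 and 49.1 CPM, the mock libraries 22.9, 31.1 and 18.2 CPM, and the neutral libraries 18.9, 36.8 and 32.3 CPM. Both aversive libraries were thus below, and both appetitive libraries above, each of the other libraries, while mock (24.05 ± 6.52 CPM, n = 3) and neutral (29.35 ± 9.3 CPM, n = 3) overlapped. In summed counts scaled by normalized library size, neutral libraries had 352.9 times the aversive level, mock libraries 248.5 times and appetitive libraries 1070 times. These ratios rest on 6 summed aversive counts, describe the contrast on which the gene was chosen and leave out the spread between libraries. The fitted log2 differences were -8.32 for aversive against neutral, -8.03 for aversive against mock, 10.12 for appetitive against aversive, 1.80 for appetitive against neutral, 2.09 for appetitive against mock and 0.29 for neutral against mock. Exons of Exosc9 share 510 bp with Ccna2, a cyclin gene on the other strand, and the counting ignored strand. Ccna2 had 6 and 7 counts in the aversive, 2 and 0 in the appetitive, 18 to 377 in the mock and 318 to 490 in the neutral libraries. It was thus lower in the aversive than in the mock and neutral libraries, as Exosc9 was, and also lower in the appetitive libraries, where Exosc9 was higher. Its part in the counts of Exosc9 was not tested.

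**Figure D1:**
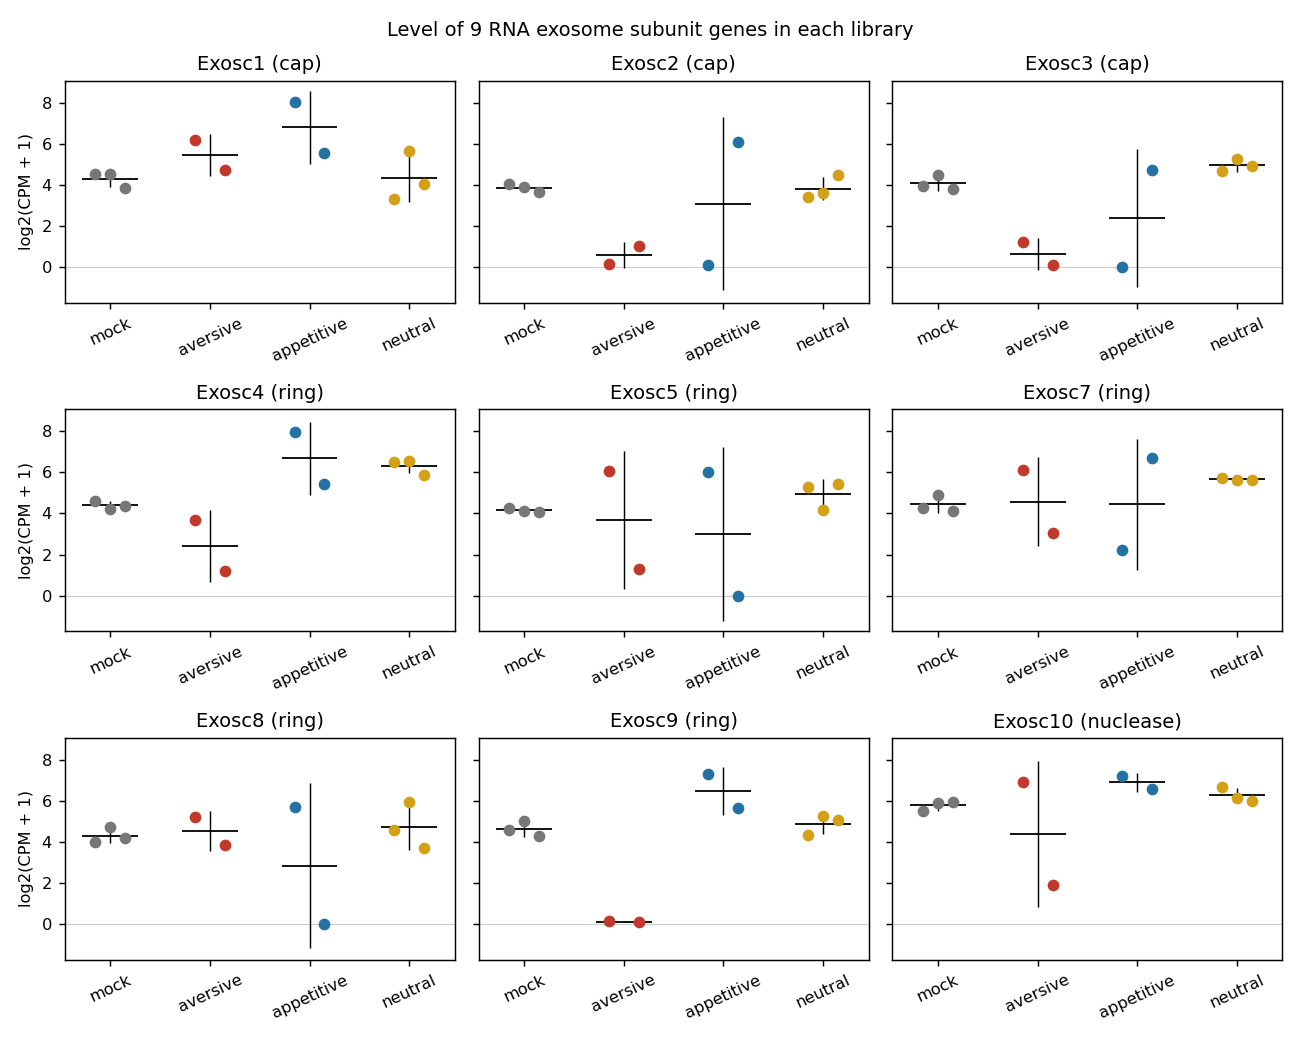
Level of the 9 measured exosome subunit genes as log2(CPM + 1), with 1 point per library in the mock, aversive, appetitive and neutral groups, the group mean as a horizontal line and the SD as a vertical line. Exosc9 sits near 0 in both aversive libraries, Exosc2 and Exosc3 are also low there and in 1 appetitive library, and Exosc5 and Exosc7 have 1 high and 1 low library in both groups of 2.

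The cap genes were split. Exosc1 (chr19:41922292-41933423, minus strand), which encodes the cap subunit known in yeast as Csl4, had 71.3 and 25.5 CPM in aversive and 263.3 and 45.9 CPM in appetitive libraries. It was therefore above its mock levels of 22.5, 22.2 and 13.4 CPM in all 4 of these libraries, and the neutral levels of 9.12, 48.9 and 15.8 CPM spanned them. Exosc2 (chr2:31670715-31681349, plus strand), the Rrp4 subunit, had 2 and 52 counts in the aversive libraries, or 0.1001 and 1.04 CPM. Its mock levels were 15.5, 13.9 and 11.7 CPM and its neutral levels 9.56, 11.1 and 21.3 CPM, so both aversive libraries lay below both groups. In the appetitive group Exosc2 had 1 count (0.0782 CPM) in replicate 1 and 1279 counts (67.0 CPM) in replicate 2. The first is at the floor, as is aversive replicate 1, and the second is the highest level of the 10 libraries. Exosc3 (chr4:45316613-45342732, minus strand), the Rrp40 subunit, behaved much like Exosc2. Its aversive levels were 1.30 and 0.0601 CPM (26 and 3 counts), its appetitive levels 0 and 25.8 CPM (0 and 492 counts). Mock libraries had 14.3, 21.7 and 13.0 CPM of Exosc3 and neutral libraries 24.4, 37.6 and 29.2 CPM, with no overlap between them. Exons of Exosc2 and Exosc3 share 358 and 53 bp with Gm13427 and Dcaf10 on the other strand. Dcaf10 was itself at 0.500 CPM in aversive replicate 1 and 0 in appetitive replicate 1. It was at 3.45 CPM in aversive replicate 3, where Exosc3 was at 0.0601 CPM. In appetitive replicate 2 it was at 0.314 CPM, where Exosc3 was at 25.8 CPM. The part of Dcaf10 in the counts of Exosc3 was not tested.

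Of the ring genes, Exosc4 had the pattern closest to that of Exosc9, its neighbour in the ring. Exosc4 (chr15:76327397-76330677, plus strand) had 11.6 and 1.26 CPM in aversive libraries, below the 23.2, 17.3 and 19.6 CPM of mock and the 90.6, 93.1 and 58.3 CPM of neutral libraries. Its appetitive levels of 244.4 and 41.5 CPM were above mock and on either side of the neutral range. Oplah, which shares 385 bp of exon with Exosc4 on the other strand, had 1.90 and 129.9 CPM in the aversive and 0.0782 and 2.99 CPM in the appetitive libraries. Both appetitive values were below the Oplah levels of 22.6 to 77.2 CPM in mock, whereas Exosc4 was above mock there. Exosc5 (chr7:25659164-25671368, plus strand) had 66.2 and 1.46 CPM in aversive and 63.3 and 0 CPM in appetitive libraries. Its mock levels of 18.5, 16.2 and 16.0 CPM fell between the libraries of each tagged pair, and the neutral levels were 38.3, 16.7 and 42.4 CPM. Exosc8 (chr3:54728678-54735393, minus strand), the ring partner of Exosc5, was likewise at 0 counts in appetitive replicate 2 and at 50.05 CPM in appetitive replicate 1. Its aversive levels were 36.3 and 13.5 CPM, its mock levels 14.9, 25.6 and 17.3 CPM and its neutral levels 22.8, 60.2 and 12.1 CPM. Exosc7 (chr9:123113215-123136129, plus strand) went the other way within the appetitive pair, with 3.60 CPM in replicate 1 and 103 CPM in replicate 2. It had 67.5 and 7.31 CPM in aversive libraries, and its neutral levels of 51.8, 48.8 and 49.1 CPM were all above the mock levels of 18.4, 29.0 and 16.3 CPM. Exosc5, Exosc7 and Exosc8 thus had 1 library above and 1 below every mock library in both groups of 2, for Exosc8 only with TMM normalization and not with library size alone.

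Exosc10 (chr4:148558429-148582401, plus strand), the nuclear exonuclease, had 119.4 CPM in aversive replicate 1 and 2.71 CPM in aversive replicate 3. The first was above and the second below the mock levels of 43.7, 59.3 and 60.8 CPM. Its appetitive levels of 148 and 93.7 CPM and its neutral levels of 102.1, 70.0 and 63.1 CPM were above mock in each library. With library size alone it was no longer above mock in aversive replicate 1, appetitive replicate 1 and neutral replicate 3. Exosc10 was therefore not low in both libraries in which Exosc9 was close to absent.

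**Figure D2:**
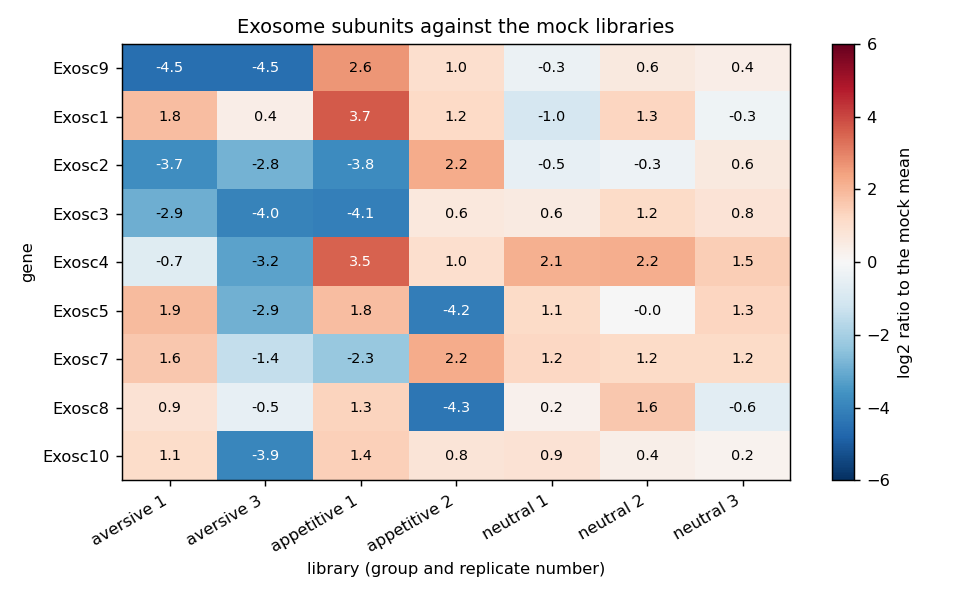
Log2 ratio of each subunit's level to its mean over the 3 mock libraries, computed from CPM + 1, in each of the 7 aversive, appetitive and neutral libraries, with blue for lower and red for higher than mock. Exosc9, in the top row, is below mock in both aversive columns, the 8 genes under it are mixed in aversive replicate 1 and mostly low in aversive replicate 3, and the neutral columns are pale.

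Library by library, the other 8 measured subunits did not move as 1 block with Exosc9. A level was counted as below or above when it lay outside the range of the 3 mock libraries, and each count is given with the share of the same 7096 genes that did so. In aversive replicate 1, where Exosc9 was below mock, 3 of the 8 were below (Exosc2, Exosc3 and Exosc4; 38.5% of genes) and 5 above (35.8%). One of them, Exosc2, had at most 3 counts, as did 6.88% of genes. In aversive replicate 3, where Exosc9 was also below, 7 of 8 were below (43.2% of genes) and Exosc1 alone was above (31.3%), and Exosc3 had at most 3 counts, as did 1.00% of genes. With library size alone as the scale, a comparison chosen after seeing the data, 6 of 8 were below in this library. The genes below mock in both aversive libraries were Exosc2, Exosc3 and Exosc4.

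In appetitive replicate 1, where Exosc9 was above mock, 3 of 8 were below (Exosc2, Exosc3 and Exosc7; 49.6% of genes) and 5 above (37.4%), the latter 3 with library size alone. Exosc2 and Exosc3 had at most 3 counts there, as did 23.2% of genes. In appetitive replicate 2, with Exosc9 again above, 2 of 8 were below (Exosc5 and Exosc8; 44.9% of genes) and 6 above (38.4%). Both that were below had 0 counts, and 14.5% of genes had at most 3. No subunit was below mock in both appetitive libraries, and Exosc1, Exosc4 and Exosc10 were above in both, the last only with TMM normalization.

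In the neutral libraries most subunits lay above the mock range, and none of the 8 had 3 counts or fewer. In neutral replicate 1, with Exosc9 inside the mock range, 2 of 8 were below (Exosc1 and Exosc2; 42.4% of genes) and 5 above (34.3%). In neutral replicate 2 the numbers were 1 below (26.9% of genes) and 6 above (40.9%), and in neutral replicate 3 also 1 below (35.9%) and 6 above (35.3%), with Exosc9 above in both. With library size alone, 0 were below in replicates 2 and 3. Exosc3, Exosc4 and Exosc7 were above mock in all 3 neutral libraries with both scales. The log2 ratios to mock of the 8 subunits other than Exosc9 had an SD of 1.0, 0.84 and 0.76 in the neutral libraries, against 1.97, 1.41 and 1.58 over the 7096 genes. In the aversive libraries this SD was 2.23 and 1.62, against 1.99 and 1.74, and in the appetitive libraries 3.15 and 2.66, against 2.78 and 2.48. These differences were not tested.

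The groups were then compared with edgeR's quasi-likelihood test over 19754 genes, with p-values adjusted by the Benjamini-Hochberg method. At an adjusted p under 0.05, 0 of the 8 other subunits were called in each of the 6 comparisons. Between aversive and neutral cells, where 0.0405% of all tested genes were called, 2 of the 8 had an unadjusted p under 0.05, against 19.1% of all genes. They were Exosc3, with a log2 difference of -5.50 (SE 2.38, adjusted p = 0.247), and Exosc4, with -3.65 (SE 1.21, adjusted p = 0.174). Over the 8 subunits the median log2 difference was -0.39, with 6 negative, against a median of -0.15 over all genes. The aversive pair decided this median, which was -4.08 without aversive replicate 1, 0.32 with 5 of 8 positive without aversive replicate 3, and -1.01 with library size alone. In these settings the median over all genes was -0.26, -1.19 and -0.40. The differences of Exosc3 and Exosc4 were -8.90 and -5.97 without aversive replicate 1. Between aversive and mock cells, with 0% of genes called and 9.96% under the unadjusted threshold, 0 of the 8 had an unadjusted p under 0.05. Their fitted log2 differences ran from -4.60 for Exosc3 to 1.32 for Exosc1, with a median of 0.27, against -0.13 over all genes. With library size alone the median was -0.16, against -0.28 over all genes. It was -3.72 without aversive replicate 1 and 1.02 without aversive replicate 3, against -0.69 and -1.86 over all genes.

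Appetitive and aversive cells were compared directly, in libraries of the same kit, but with a spread estimated over all 10 libraries. A fit without the neutral libraries called 0 of 17595 genes here and 0 of the 8 subunits. In the fit of all 10 libraries, 1.80% of all genes were called and 20.0% had an unadjusted p under 0.05. Of the 8 subunits these were 0 and 2. Exosc2 had a log2 difference of 5.85 (SE 2.33, adjusted p = 0.205), which rested on appetitive replicate 2 and was -2.96 without it. Exosc4 had a log2 difference of 4.48 (SE 1.3, adjusted p = 0.111), and both of its appetitive libraries were above both aversive libraries. It was 6.72 without aversive replicate 1 and 2.52 without appetitive replicate 1. The median over the 8 subunits was 1.33 against -0.48 over all genes, with 7 of the 8 positive. It was 4.61 without aversive replicate 1, against -0.22 over all genes. Without aversive replicate 3 it was 0.56 with 5 positive, against 0 over all genes. Without appetitive replicates 1 and 2 it was 0.87 and 0.81, against -1.41 and -2.25 over all genes. These comparisons share libraries with those against mock and neutral, so they are not separate evidence.

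Between appetitive and neutral cells, 6.17% of genes were called and 29.3% had an unadjusted p under 0.05, against 0 and 1 of the 8 subunits. The 1 was Exosc1, with a log2 difference of 2.65 (SE 1.04, adjusted p = 0.125), which fell to 0.79 without appetitive replicate 1. The median over the 8 was 0.36, or -0.14 with library size alone, against -0.91 over all genes, or -1.45 with library size alone. It was -0.09 without appetitive replicate 1 and 0.71 without appetitive replicate 2, against -1.96 and -3.42 over all genes. Between appetitive and mock cells, 1.98% of genes were called and 23.8% had an unadjusted p under 0.05, against 0 and 2 of the 8. Exosc1 had a log2 difference of 3.0 (SE 1.05, adjusted p = 0.14) and Exosc4 one of 2.83 (SE 1.03, adjusted p = 0.151), and in each case both appetitive libraries were above the 3 mock libraries. Without appetitive replicate 1 they were 1.02 and 0.83. The median over the 8 was 1.22 with 7 positive, against -1.45 over all genes. Without appetitive replicate 1 it was 0.70 with 6 positive, against -3.80 over all genes. Between neutral and mock cells, 0.0861% of genes were called and 13.5% had an unadjusted p under 0.05, against 0 and 0 of the 8. All 8 fitted differences were positive, from 0.03 for Exosc2 to 2.01 for Exosc4, while 48.1% of all genes were negative. The number positive was 7 with DESeq2's size factors and 6 without neutral replicate 2. The median over the 8 was 0.81 against 0.08 over all genes.

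DESeq2's Wald test, run as an alternative, called more genes throughout. At an adjusted p under 0.05 it called 16.5% of the genes to which it gave an adjusted p in aversive against neutral cells, 24.3% in appetitive against aversive, 29.5% in appetitive against neutral, 28.3% in appetitive against mock, 8.45% in aversive against mock and 7.76% in neutral against mock cells. Against these shares, of the 8 subunits it called 2, 2, 1, 2, 0 and 0. These were Exosc3 (log2 difference -5.34, adjusted p = 0.0269) and Exosc4 (-3.50, adjusted p = 0.0201) in aversive against neutral cells. In appetitive against aversive cells they were Exosc2 (5.95, adjusted p = 0.00883) and Exosc4 (4.67, adjusted p = 0.00184). Exosc1 was called in appetitive cells against both neutral (3.04, adjusted p = 0.0284) and mock (3.30, adjusted p = 0.0171), and Exosc4 against mock (3.16, adjusted p = 0.026). The directions were those of edgeR's fit.

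**Figure D3:**
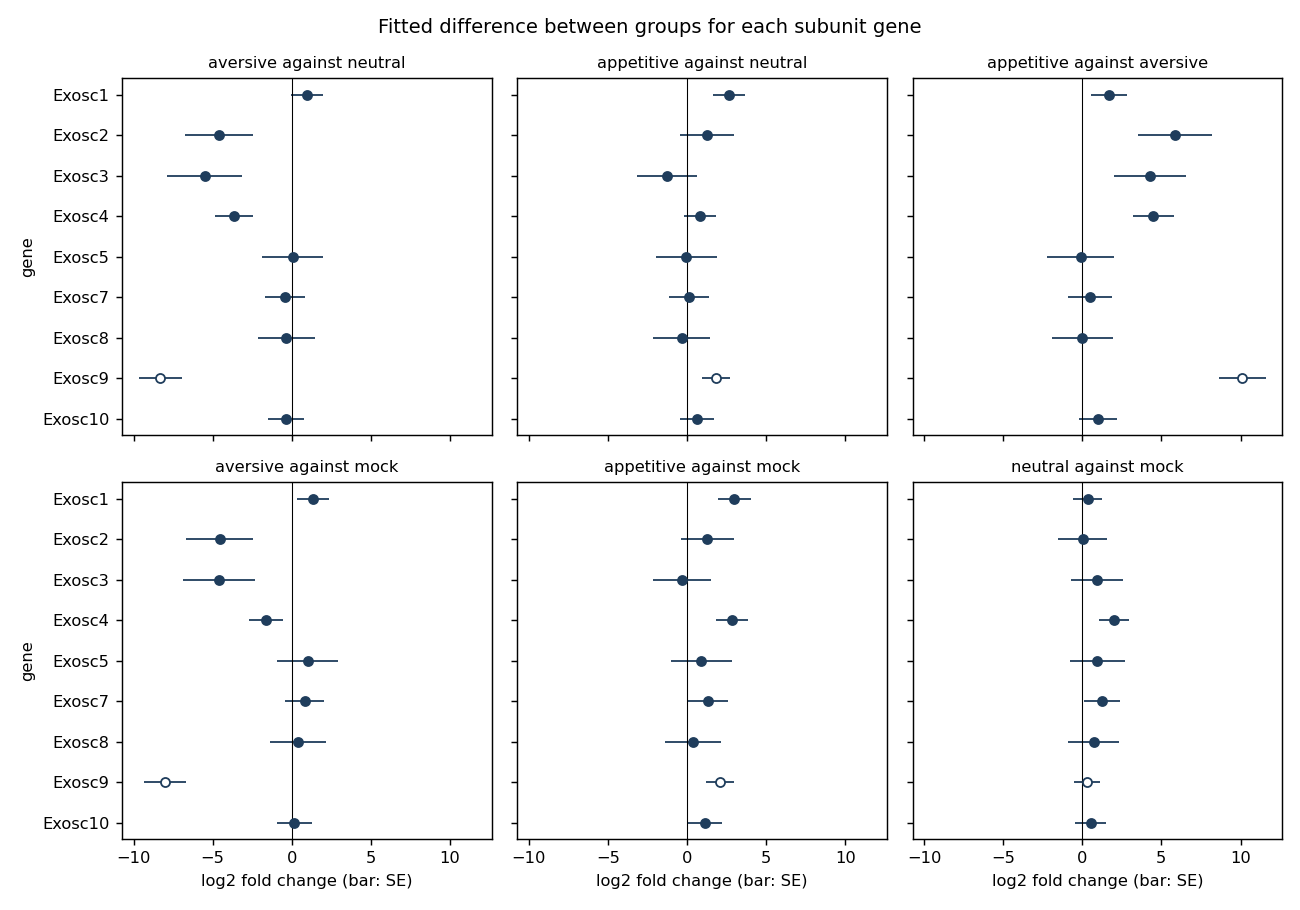
Fitted log2 differences with their SE from edgeR for the 9 measured subunits (rows) in the 6 comparisons (panels). The filled points are the 8 tested subunits, none of which passed an adjusted p under 0.05, and the open point is Exosc9, shown as a description, at -8.32 in aversive against neutral and 10.12 in appetitive against aversive cells.

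The likeness of each gene to Exosc9 was measured by Pearson's r of log2(CPM + 1) over the 10 libraries, which share kits and depth by group, and is given as a description. Exosc4 had the highest r among the subunits, 0.83 (Spearman's rho 0.78), and ranked 107 of 19753 genes. Exosc10 followed with 0.57 (rank 832), Exosc2 with 0.45 (rank 1541) and Exosc3 with 0.43 (rank 1666). Exosc1 had an r of 0.20, Exosc5 0.12, Exosc7 -0.06 and Exosc8 -0.07. Thus 4 of the 8 were among the top 10% of genes, and 2 (Exosc4 and Exosc10) in the 7 libraries without neutral. The aversive libraries decided the order. Without them, a setting chosen after seeing the data, Exosc1 rose to 0.96 (rank 7) and Exosc2 and Exosc3 fell to -0.57 and -0.75, while Exosc4 had 0.68 and Exosc10 0.71.

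The 5 genes most alike to Exosc9 over the 10 libraries were Tmco6 (r 0.98), Shld1 (0.98), Commd10 (0.98), Srp54c (0.98) and Cdr2l (0.97). None encodes an exosome subunit. Tmco6, which encodes a transmembrane protein, had 0 and 0.421 CPM in the aversive and 88.4 and 37.6 CPM in the appetitive libraries, with 9.32 to 11.9 CPM in mock and 15.5 to 21.8 CPM in neutral libraries. Shld1, a subunit of the shieldin complex of DNA repair, had 0.1001 and 0.601 CPM in aversive and 60.4 and 39.2 CPM in appetitive libraries. In both, as for Exosc9, the aversive pair was below and the appetitive pair above all other libraries.

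Genes of the exosome's cofactors were taken from a list of 20: the nucleases Dis3 and Dis3l, nuclear helicase, polymerase and adaptor genes, cap-binding genes and those of the cytoplasmic Ski complex, which feeds mRNA to the exosome. By edgeR's test 0 of the 20 were called in each comparison. At an unadjusted p under 0.05 there were 3 in aversive against neutral, 4 each in appetitive against neutral, aversive and mock, and 0 in aversive or neutral against mock, where the backgrounds are those above. Their median log2 differences lay between -0.37 and 0.49 over the 6 comparisons. Dis3, the main nuclease bound to the ring, had 12.5 and 26.1 CPM in aversive, 127.7 and 0.367 CPM in appetitive, 16.9 to 23.9 CPM in mock and 7.95 to 20.2 CPM in neutral libraries. Dis3l, its cytoplasmic relative, had 0.250 and 9.82 CPM in aversive and 0 and 84.8 CPM in appetitive libraries, against 10.9 to 28.5 CPM in mock. The appetitive pair lay on opposite sides of mock for both nucleases, as it did for Exosc2, Exosc3, Exosc5, Exosc7 and Exosc8 but not for Exosc1, Exosc4, Exosc9 and Exosc10.

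Some cofactor genes, described after their values were seen, had both libraries of 1 group above or below all others. The share of all genes with such a separation was not counted. Mtrex, the helicase that unwinds RNA for the nuclear exosome, had 187.9 and 153.4 CPM in appetitive libraries and 27 to 72.8 CPM in the other 8 (log2 difference to neutral 2.29, SE 0.717, adjusted p = 0.0733). Tent4b and Tent4a encode polymerases that add short A tails to nuclear RNA before it is degraded. Tent4b had 0.235 and 0.0524 CPM in appetitive libraries, below the 1.52 to 94.7 CPM of the others (log2 difference to neutral -6.44, adjusted p = 0.0728), and Tent4a had 1 and 0 counts. Skic3 (Ttc37 in the annotation), the scaffold of the Ski complex, had 0.235 and 0 CPM (3 and 0 counts) in the appetitive libraries. Its aversive levels were 0.250 CPM (5 counts) and 6.69 CPM, and its neutral levels 6.18 to 13.5 CPM. Skic3 was thus also close to the floor in aversive replicate 1, from which only a few counts set the appetitive pair apart. Zcchc7, a partner of these polymerases, was at 56.4 and 99.5 CPM in aversive libraries, above all others, which had 4.14 to 29.7 CPM. Its appetitive levels of 4.14 and 12.8 CPM were in turn below all others. C1d in the appetitive pair (100.3 and 99.7 CPM) and Ncbp1 in the aversive pair (51.3 and 58.0 CPM) were also above all others. Skic2 in the aversive pair (32.9 and 3.81 CPM) was below all others. DESeq2 called 4 of the 20 cofactor genes in appetitive against neutral cells and 4 in appetitive against mock cells. Of all genes with an adjusted p it called 29.5% and 28.3%. In both comparisons the 4 were Mtrex, Tent4a, Tent4b and Skic3.

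**Figure D4:**
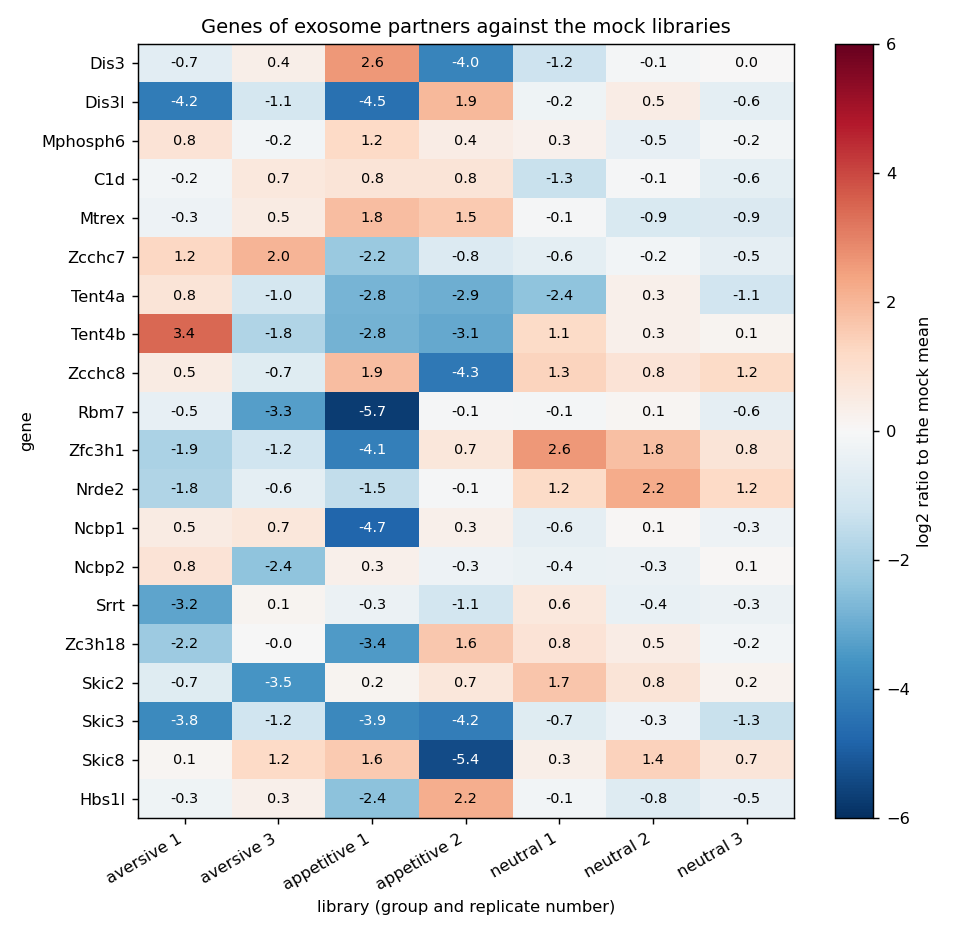
Log2 ratio of 20 cofactor genes of the exosome to their mean over the 3 mock libraries, from CPM + 1, in the 7 aversive, appetitive and neutral libraries, with blue for lower and red for higher than mock. Tent4a, Tent4b and Skic3 are below and Mtrex is above mock in both appetitive columns, while Dis3, Dis3l, Zcchc8 and Skic8 differ in sign between those columns.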

How the data were processed

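RNA-seq was carried out on 10 libraries of sorted mouse hippocampal cells. The authors mapped the first 40 bp of reads with STAR to mm10, assigned them to genes of an Ensembl GRCm38 annotation with featureCounts without regard to strand, and deposited raw counts for 53379 genes (versions of these tools are not given in the sources used here). Positions and exon overlaps came from GENCODE M21 (GRCm38), another release than the annotation used for counting, which held 53274 of the identifiers, and promoters from RefSeq (GRCm38.p6). Groups came from the labels.

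Counts were fitted in R 4.3.3 with edgeR 4.0.16: TMM normalization (factors 0.48 to 1.45), filterByExpr (19754 genes), 1 quasi-likelihood model of 4 groups, two-sided tests, and Benjamini-Hochberg adjustment over all tested genes. The common dispersion was 1.49, a coefficient of variation of 122%. Fold changes of genes at 0 counts depend on edgeR's prior count and are no bounds. SE values were derived from the F statistics. The steps were tested on simulated data.

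The 10 subunits, the lists and the tests were chosen with earlier results of these data known. Exosc9 received no test. Every subunit was described in each library, and statistics were given one by one for those with an unadjusted p under 0.05. The genes alike to Exosc9 were the 5 with the highest r. Alternatives were DESeq2 1.42.0, its size factors, library size alone, no filter, fits without neutral libraries or of 2 groups, the replicate number as a block, and leaving out each library. Figures were drawn with Python 3.11.15. The reads, RRBS, behavior and physiology were not analysed here.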

Additional observations from a re-analysis of the deposited data

How the results depend on the processing

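The number of other subunits called was 0 by edgeR in each comparison. With DESeq2's Wald test it was 2 in aversive against neutral, 1 in appetitive against neutral, 2 in appetitive against aversive and 2 in appetitive against mock cells. Leaving out 1 mock or neutral library at a time gave 0 in each comparison. Over all genes these fits called 0% to 4.12%, so a count of 0 of 8 lies near that background. Leaving out an aversive or appetitive library left 1 library in that group, so only log2 differences are given for the subunits in those fits. Without appetitive replicate 1, that of Exosc8 was -13.56 for appetitive against neutral cells, from a library with 0 counts of it. Without appetitive replicate 2, that of Exosc3 was -13.47 for appetitive against neutral cells, again from 0 counts, and that of Exosc4 was 5.10 for appetitive against aversive cells. Without aversive replicate 1, that of Exosc10 was 5.37 for appetitive against aversive cells. The log2 difference of Exosc2 between appetitive and aversive cells reversed to -2.96 without appetitive replicate 2 and rose to 8.34 without aversive replicate 3. In appetitive replicate 2 Exosc2 had 1279 counts, against 1 in the other library. Each comparison held 20 cofactor genes. DESeq2 called 0 to 4 of these 20 per comparison, and 7.76% to 29.5% of all genes with an adjusted p. The fit of only the 2 groups compared called 3 of the 20 in appetitive against mock cells, and 21.8% of all genes. Without a filter, 1 of the 20 was called in appetitive against aversive cells, and 3.60% of all genes. Cofactor calls over the 6 comparisons rose from 0 to 14 with DESeq2, 1 without a filter and 3 with only the 2 groups compared. They stayed at 0 with 1 mock or neutral library left out. With 1 aversive or appetitive library left out they reached up to 7, in fits that called 0% to 12.1% of all genes. Those fits had 1 library in a group, so no conclusion is drawn from these cofactor calls. Adjusted p-values over the alternatives ran from 0.0201 to 0.371 for Exosc4 and from 0.0269 to 0.46 for Exosc3 in aversive against neutral, and from 0.00184 to 0.711 for Exosc4 in appetitive against aversive cells.

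Over all genes, DESeq2 called 3403 in aversive against neutral (8 by edgeR), 6067 in appetitive against neutral (1218), 3996 in appetitive against aversive (356), 1485 in aversive against mock (0), 4813 in appetitive against mock (391) and 1598 in neutral against mock cells (17). Without a filter edgeR called 863, 2535, 1270, 10, 1124 and 520 in the same order. With the replicate block the number of other subunits called was 0 in each comparison. Deviations from the group mean had correlations of -0.037 to 0.164 between same-numbered libraries of different groups. Differently numbered libraries were not compared, so these values cannot decide whether the numbers pair the libraries. The block lowered the genes called in appetitive against neutral cells to 73 and those of the other comparisons to 0. With only the 2 groups compared, 3585 genes were called in appetitive against mock cells and 0 in the others. Without the neutral libraries, 0 genes were called in each comparison that remained. The causes of these differences were not tested.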
